A study of Mus musculus with 3 samples.

Results

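The genes described here act as brakes on JAK-STAT signaling: the suppressors of cytokine signaling Socs1, Socs2, Socs3, Socs5, Socs6, Socs7 and Cish, the protein inhibitors of activated STAT Pias1 and Pias3, and the phosphatase gene Ptpn11. They are 10 of the 35696 gene names on the array. Every probe that carries one of these names, or whose transcript has it as its current symbol, was taken, which gave 18 of the 55681 gene probes. The rule used gene names alone, and the genes were chosen with earlier results of these data known.

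Cytokine receptors signal through JAK kinases, which phosphorylate STAT factors, and the STAT factors then enter the nucleus and switch on their targets. Socs1, Socs2, Socs3 and Cish are themselves STAT targets, and their proteins bind the receptor or the kinase through an SH2 domain and recruit a ubiquitin ligase through the SOCS box, so that the pathway limits itself. PIAS proteins are SUMO ligases that act on STAT factors in the nucleus, and SHP2, the product of Ptpn11, is a phosphatase that docks on gp130 and competes there with SOCS3.

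MEF cells are fibroblasts taken into culture from mouse embryos, here of the C57BL/6 strain. Total RNA came from MEF cells without treatment (control), with 10 µg/ml n-butylidenephthalide (BP10) and with 40 µg/ml (BP40), and each condition was measured on 1 Agilent array with 1 colour, 3 arrays in all. BP is a compound from Angelica sinensis root that the labels call n-Butylenephthalide. The study's text calls the control DMSO, the solvent of BP, where the labels record no treatment, and the length of exposure and the number of embryos behind each culture were not given in the sources used here. No condition was repeated, so each ratio compares a pair of arrays without a replicate check or a p-value, and so few arrays limit the precision.

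Signals are given as log2 of the background-corrected intensity relative to the 75th percentile of the array, so that 0 stands for that percentile. A probe was called at a ratio of 2-fold, which is 1 on the log2 scale, when at least 1 of the arrays compared showed it well above background. Between 68.3 and 81.7% of the spots were well above background on an array and none was saturated. For genes with more than 1 probe, the median SD of the log2 ratio between probes was 0.30 in the comparison of BP10 with control, 0.23 in that of BP40 with control and 0.21 in that of BP40 with BP10. The 3 arrays lay on 1 slide, but the control was scanned in a separate session, so scan session and BP cannot be told apart in comparisons with the control. Of 12 fibroblast markers 12 were above background on each array, and their summed linear level was 1562 on control, 1131 on BP10 and 1214 on BP40. All 8 macrophage markers were above background as well, with summed levels of 33.7, 27.0 and 30.3, as were 4 of 6 epithelial markers (Krt8, Krt18, Krt5 and Cldn4), with summed levels of 2.76, 2.75 and 1.84, but not the other epithelial markers Epcam and Cdh1. Above background on all 3 arrays were also 6 of 6 neural and 5 of 6 lymphocyte markers. So were 4 of 6 markers each of endothelial, skeletal muscle and adipocyte cells, and 1 of the 5 erythroid markers on the array. Signal above background therefore does not by itself show which cell types were present. The part of these markers in the results was not tested.

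The promoters of Socs3 and Cish are shown because both genes are classical STAT targets and the arrays gave different patterns for them. The motif TTCNNNGAA, which reads the same on both strands and is the core that STAT dimers recognise, is in capitals. The sequences are RefSeq's for mouse build GRCm38.p6, from 250 bases before to 50 bases after the start of the gene, at chr11:117969317-117969616 on the minus strand for Socs3 and chr9:107296409-107296708 on the plus strand for Cish.
Socs3: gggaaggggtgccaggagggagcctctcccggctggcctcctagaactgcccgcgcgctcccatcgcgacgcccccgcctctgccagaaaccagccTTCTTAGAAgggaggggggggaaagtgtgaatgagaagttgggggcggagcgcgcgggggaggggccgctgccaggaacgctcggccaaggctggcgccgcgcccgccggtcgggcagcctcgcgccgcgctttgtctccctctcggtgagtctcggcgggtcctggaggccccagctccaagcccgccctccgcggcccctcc
Cish: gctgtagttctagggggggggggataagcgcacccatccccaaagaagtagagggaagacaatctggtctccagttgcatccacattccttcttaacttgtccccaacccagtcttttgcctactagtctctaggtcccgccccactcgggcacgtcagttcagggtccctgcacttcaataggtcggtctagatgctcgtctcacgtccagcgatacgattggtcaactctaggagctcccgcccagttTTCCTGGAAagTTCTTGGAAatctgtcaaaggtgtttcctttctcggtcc
The Socs3 window held 1 match, whose first base lay at -154 from the start, and the Cish window held 2 matches, at 0 and 11. Of 32851 promoters of this length, 8.3% held the motif. The windows of Socs1, Pias1, Pias3 and Ptpn11 held none, and those of Socs2, Socs5, Socs6 and Socs7 were not used here. A match describes these letters and is not evidence of a bound site.

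Between BP10-treated MEF cells and the control, 2 of the 18 probes were called, against 15.4% of all probes in either direction. Socs3 was down-regulated, where 11.8% of all probes were called lower, and the dimmer of both Pias3 probes was up-regulated, where 3.63% were called higher. Between BP40-treated cells and the control 0 of 18 probes were called, against 15.4% of all probes, and between BP40 and BP10 0 of the 17 probes measurable there were called, against 5.69%. The 18 probes had a median log2 ratio to control of 0.12 in BP10 and 0.00 in BP40, beside -0.17 and -0.14 over all probes. Calls over the whole array lie mostly among dim probes, so the ratio of each member was also set beside the 5th to 95th percentiles of all probes in its own brightness class of 1 log2 unit. Within those bounds lay 15 of the 18 members in BP10 and 18 in BP40 when each was compared with the control, and 14 of the 17 measurable ones when BP40 was compared with BP10.

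**Figure D1:**
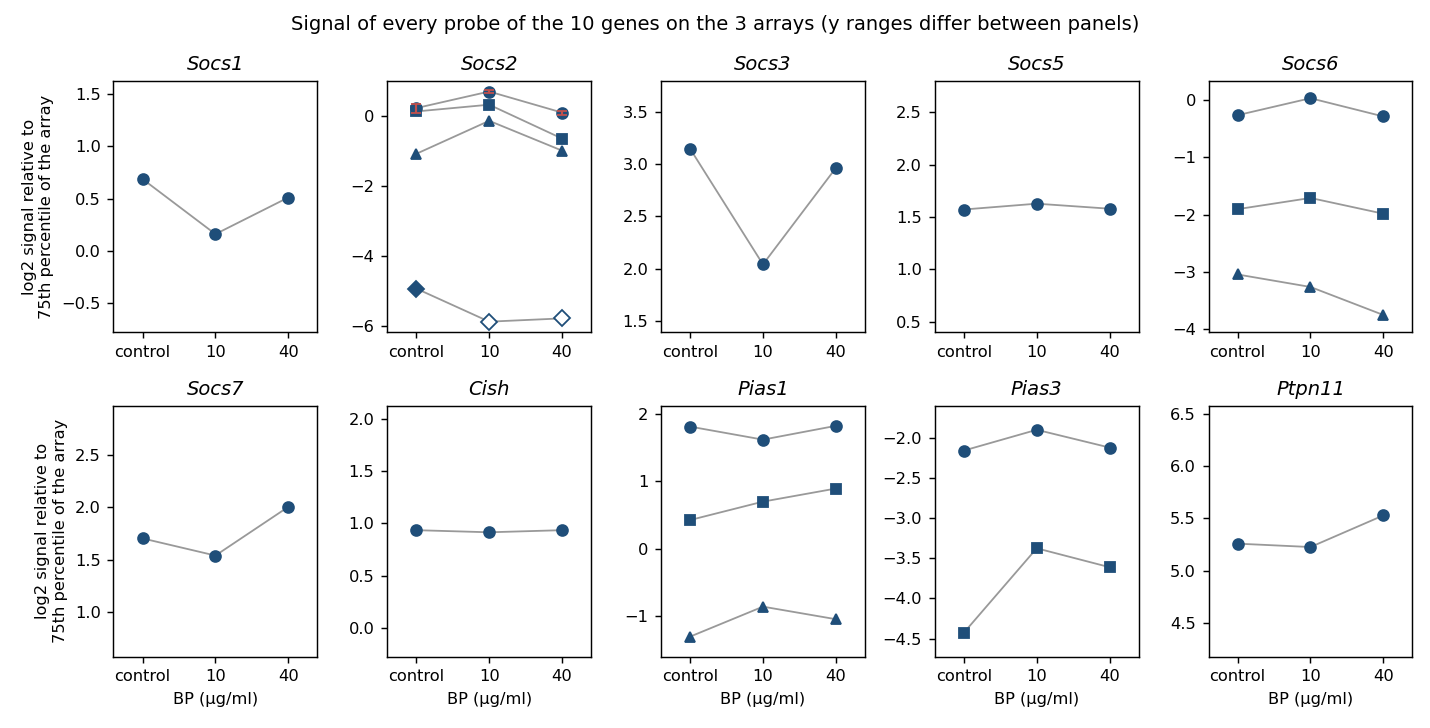
Log2 signal relative to the 75th percentile of the array (y axis) on the control, 10 µg/ml BP and 40 µg/ml BP arrays (x axis), 1 panel per gene and 1 symbol shape per probe. Red bars are the SD between the 10 spots of a Socs2 probe, open symbols were not well above background, and lines join the values of a probe. Socs3 fell to 2.04 on BP10 while Cish stayed between 0.92 and 0.94.

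Socs3, the feedback inhibitor that binds gp130 and JAK kinases, had log2 signals of 3.15 (control), 2.04 (BP10) and 2.96 (BP40). The BP10 array stood apart and the other two lay close together. This was a 2.15-fold lower signal in BP10-treated cells (log2 ratio -1.10), and a 1.89-fold higher signal in BP40 than in BP10 (0.92). BP40 and control differed by -0.18. The probe was bright on each array, with intensities of 15435, 5767 and 9460. Among the 2372 probes of its brightness class the log2 ratio of BP10 to control ran from -0.56 at the 5th to 0.49 at the 95th percentile, and 1.31% of them differed by 2-fold or more. For BP40 against BP10 that range was -0.48 to 0.60, so Socs3 lay outside it in both comparisons. Each value rests on a single spot of a single probe (mm9, chr11:117827480-117827539, minus strand), and in whole-culture RNA fewer cells that express a gene and less RNA per cell cannot be told apart.

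Socs2, which limits growth hormone receptor signaling, had its highest signal on the BP10 array in all 3 of its probes that were above background throughout. The probe printed in 10 spots gave 0.24 on control with an SD of 0.13 between spots, 0.71 on BP10 with an SD of 0.04 and 0.11 on BP40 with an SD of 0.06. The spots did not overlap between BP10, at 0.65 to 0.80, and either the control, at -0.06 to 0.34, or BP40, at 0.02 to 0.19. Those of control and BP40 did overlap. Over the 399 probes printed 10 or more times the median SD between spots was 0.14 on control, 0.08 on BP10 and 0.09 on BP40. Small ratios can therefore separate spots, and how many of these probes had spots that stood apart in this way was not counted. The log2 ratio of BP10 to control was 0.47 with a standard error between spots of 0.04, and that of BP40 to BP10 was -0.60 with one of 0.02, errors that cover the printing and reading of the arrays and not the cultures. Both ratios lay within the range of the brightness class, from -0.80 to 0.70 and from -0.64 to 0.68. Probe 2 gave 0.14, 0.34 and -0.63, with log2 ratios of 0.19 from control to BP10 and -0.97 from BP10 to BP40. Probe 3 gave -1.07, -0.12 and -0.98, with log2 ratios of 0.94 and -0.85. The 3 probes therefore had the same order of BP10 against the other arrays and differed in size, and probes 2 and 3 were outside the range of their brightness class for BP40 against BP10. They also differed in BP40 against control, at -0.13, -0.78 and 0.09. Probe 4, named Socs2 in the newer array design only, was well above background on the control array alone and gives a bound of -0.14 for BP10 and -0.47 for BP40. The sequence of probe 3, which is shown for its large ratio, lies in the coding part of the transcript (mm9, chr10:94875468-94875527, minus strand).
Socs2 probe 3: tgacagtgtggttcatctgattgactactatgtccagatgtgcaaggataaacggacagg

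Socs3 and the 10-spot Socs2 probe had ratios of opposite sign from control to BP10 and from BP10 to BP40, and not from control to BP40, at -0.18 and -0.13. For BP10 against control the log2 ratio of Socs3 was 1.58 below that of the 10-spot Socs2 probe, and for BP40 against BP10 it was 1.52 above it. This difference between genes does not change when all signals of an array are multiplied by a common factor, whereas the level of either gene against the control does. The bright E1A spike-in probes, the labelling controls of the array, had a median log2 ratio of -0.06 for BP10 and 0.80 for BP40 against control over 6 probes. These probes ranged from -0.52 to 0.15 for BP10 and from 0.11 to 0.99 for BP40. Taken directly, their median for BP40 against BP10 was 0.76, which the scaling did not use. Scaled on the medians against control instead, Socs3 was at -1.04 in BP10 and -0.99 in BP40 against control, so that the difference between BP40 and BP10 was 0.06. With that scaling the 10-spot Socs2 probe was at 0.53 and -0.93. Scaled on the array median, Socs3 was at -0.77 in BP10 and so no longer called, while Socs2 probe 3 was, at 1.27. Quantile normalization also put Socs2 probe 3 past 2-fold, at 1.03, and so, barely, did spike-in scaling. The spike-in scaling was chosen after the data were seen, and which scaling is the right one was not tested.

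**Figure D2:**
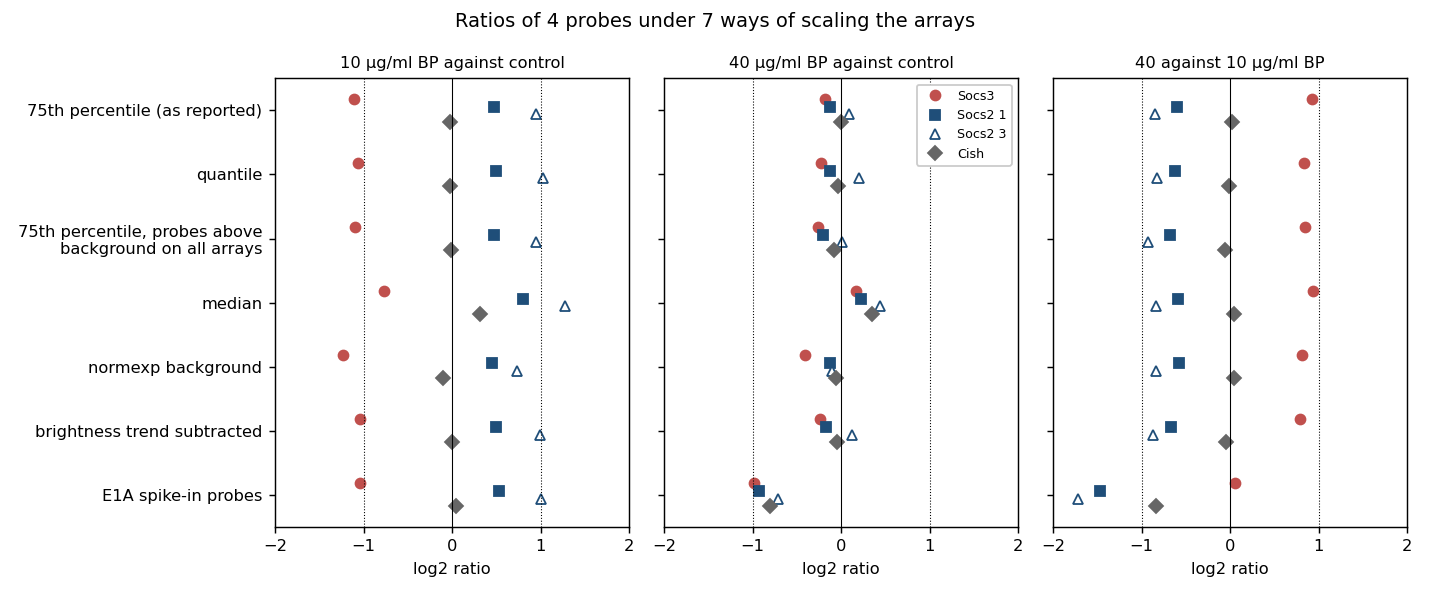
Log2 ratios (x axis) of the probes of Socs3, Socs2 (the 10-spot probe 1 and probe 3) and Cish under 7 scalings of the arrays (y axis), for 3 comparisons. Dotted lines mark 2-fold. Socs3 lay left of Socs2 for BP10 against control and right of it for BP40 against BP10 under each scaling, while the E1A spike-in scaling shifted the 4 probes lower at BP40.

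Cish, the member first known as a STAT5 target, did not follow Socs2. Its signals of 0.94, 0.92 and 0.94 gave log2 ratios to control of -0.02 for BP10 and 0.00 for BP40, which became 0.31 and 0.35 with median scaling and 0.04 and -0.80 with spike-in scaling. Socs1, which inhibits JAK kinases downstream of interferon receptors, gave 0.69 on control, 0.16 on BP10 and 0.51 on BP40. Its order was that of Socs3 with a smaller range, and the log2 ratio of -0.53 for BP10 against control lay within the range of its brightness class, from -0.80 to 0.70.

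Socs5, Socs6 and Socs7, the members with more distant ties to cytokine receptors, were not called in any comparison. Socs5 gave 1.57, 1.63 and 1.58, a spread well under the median SD between probes. Socs7 gave 1.70, 1.54 and 2.01, with a log2 ratio of 0.47 for BP40 against BP10. For Socs6 the brightest of 3 probes gave -0.26, 0.03 and -0.29 and the second -1.90, -1.71 and -1.98. The dimmest gave -3.04, -3.26 and -3.75, which was lower on BP10 than on control where the others were higher. Its ratio of -0.71 for BP40 against control was not shared by the others, at -0.02 and -0.08.

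Pias1 was measured by 3 probes that disagreed in direction. They gave 1.81, 1.62 and 1.82 for probe 1, 0.42, 0.70 and 0.89 for probe 2, and -1.31, -0.86 and -1.05 for probe 3. The log2 ratios for BP10 against control were -0.19, 0.27 and 0.45, all short of 2-fold.

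Pias3, which binds STAT3, was called in BP10-treated cells on its second probe. That probe gave -4.43 on control, -3.38 on BP10 and -3.61 on BP40, with log2 ratios of 1.05 for BP10 and 0.81 for BP40 against control. The first probe gave -2.16, -1.90 and -2.12, with ratios of 0.26 and 0.04. The second probe was dim, with intensities of 81.1, 134.9 and 99.3, and the ratio of 1.05 lay just past the 95th percentile of 1.01 for its brightness class. With the normexp background correction it was 0.79 and no longer called. The first probe covers 60 bases in a row (mm9, chr3:96508791-96508850, plus strand), and the second lies over 1068 bases of the genome (mm9, chr3:96506433-96507500, plus strand), so that it crosses a splice junction. Both lie in the coding part of the transcript and are shown because their ratios differ.
Pias3 first probe: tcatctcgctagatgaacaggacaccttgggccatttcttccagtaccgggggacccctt
Pias3 second probe: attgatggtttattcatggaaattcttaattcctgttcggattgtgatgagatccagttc

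Ptpn11 gave 5.26, 5.23 and 5.53, with log2 ratios of -0.03 for BP10 and 0.27 for BP40 against control. It was not called and lay within the range of its brightness class in each comparison.

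**Figure D3:**
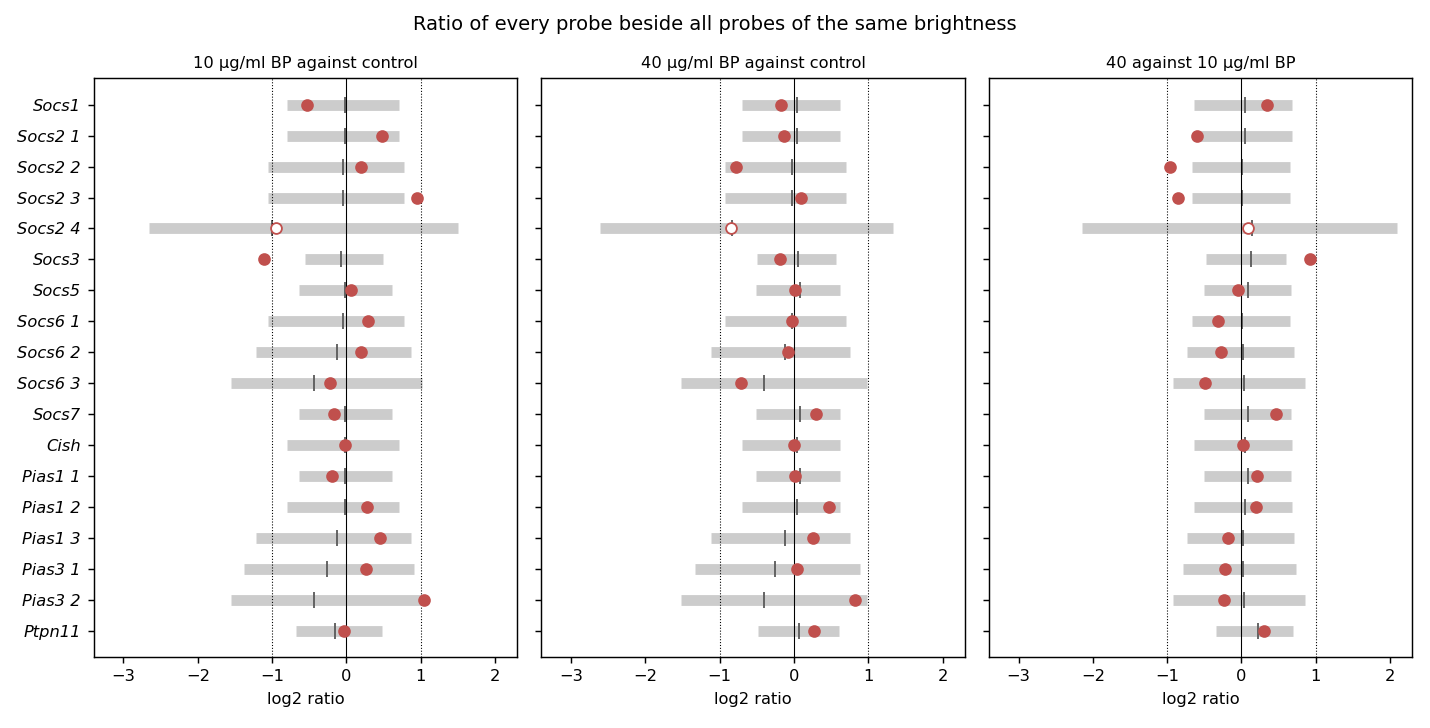
Log2 ratio (x axis) of each of the 18 probes (rows, numbered within a gene) in 3 comparisons. Grey bars run from the 5th to the 95th percentile of all probes in the same brightness class, black ticks are its median, dotted lines mark 2-fold, and open points were not well above background on an array compared. Open points are drawn at the plain ratio and not at a bound. Outside the bars lay Socs3, Socs2 probe 3 and Pias3 probe 2 for BP10 against control, and Socs3 and Socs2 probes 2 and 3 for BP40 against BP10.

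Related genes were followed with 1 probe per gene. Of all genes, 15.2% were called in BP10 and 15.1% in BP40 against the control, and 5.12% between BP40 and BP10. Ratios at BP40 in these lists carry the same shift under spike-in scaling as those of the members. Of 11 other brakes 1 was called in BP10, Usp18, which restrains type I interferon receptor signaling. Its signals were -0.65, -1.77 and -0.19, so that it was lowest on BP10, with a log2 ratio of -1.12 from control to BP10 and 1.58 from BP10 to BP40. Socs4 had ratios of -0.11 and -0.01 for BP10 and BP40 against control, Pias2 0.09 and 0.44, and Pias4 0.68 and 0.46, all uncalled. The median of the 11 was -0.11 for BP10 and 0.00 for BP40, beside -0.18 and -0.12 over all genes.

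Upstream of the brakes, 15 receptor genes had a median log2 ratio against control of -0.29 in BP10 and -0.02 in BP40, with 3 and 7 of them above 0. The shared receptor chain Il6st had ratios of -0.50 and -0.56, and Lifr, the receptor for leukemia inhibitory factor, had -0.51 and -0.34, where its other probes ran from -0.25 to 0.54 and from -0.37 to 0.56. The only receptor called on the probes used was Prlr, at 1.39 and 1.24, and its second probe gave the opposite, at -1.69 and -2.65. Lepr was at 0.22 for BP40 against control on the probe used, and its other probes ran from -1.45 to 0.52. The 11 JAK and STAT genes had a median of -0.29 in BP10 and 0.04 in BP40, with 2 and 7 of them above 0. Among them Tyk2 was up-regulated, at 1.39 and 1.34. Jak2 had ratios of -0.46 and -0.24 and Stat3 of -0.41 and 0.04, where a second Stat3 probe gave 0.32 and 0.09. Stat4 was above background on the control array alone and was called lower at BP40 by its bound.

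Of 15 other STAT3 and STAT5 response genes, 3 were called in BP10-treated cells. Bcl3, a partner of NF-kB, had a log2 ratio of -1.33 and Cebpd, a transcription factor of the acute phase, had -1.19. Saa3, an acute phase protein gene, was at 1.34 on a dim probe. That probe was not above background on BP40, where it was called lower by its bounds, at -1.28 against control and -2.62 against BP10. At BP40 Bcl3 and Cebpd were at -0.85 and -0.57. The list median was -0.06 for BP10 and -0.13 for BP40. Probes not used for these calls passed 2-fold in BP10 for Irf1, at -1.28, and Bcl2l1, at 1.02. Other Igf1 probes ran from -1.08 to 0.11. None of the 7 genes of the SOCS box ubiquitin ligase, the 12 of the SUMO machinery and the 8 partners of SHP2 was called in any comparison on the probes used. Other probes of Cul2, in the first of these lists, ran from 0.11 to 1.09 for BP40 against control.

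**Figure D4:**
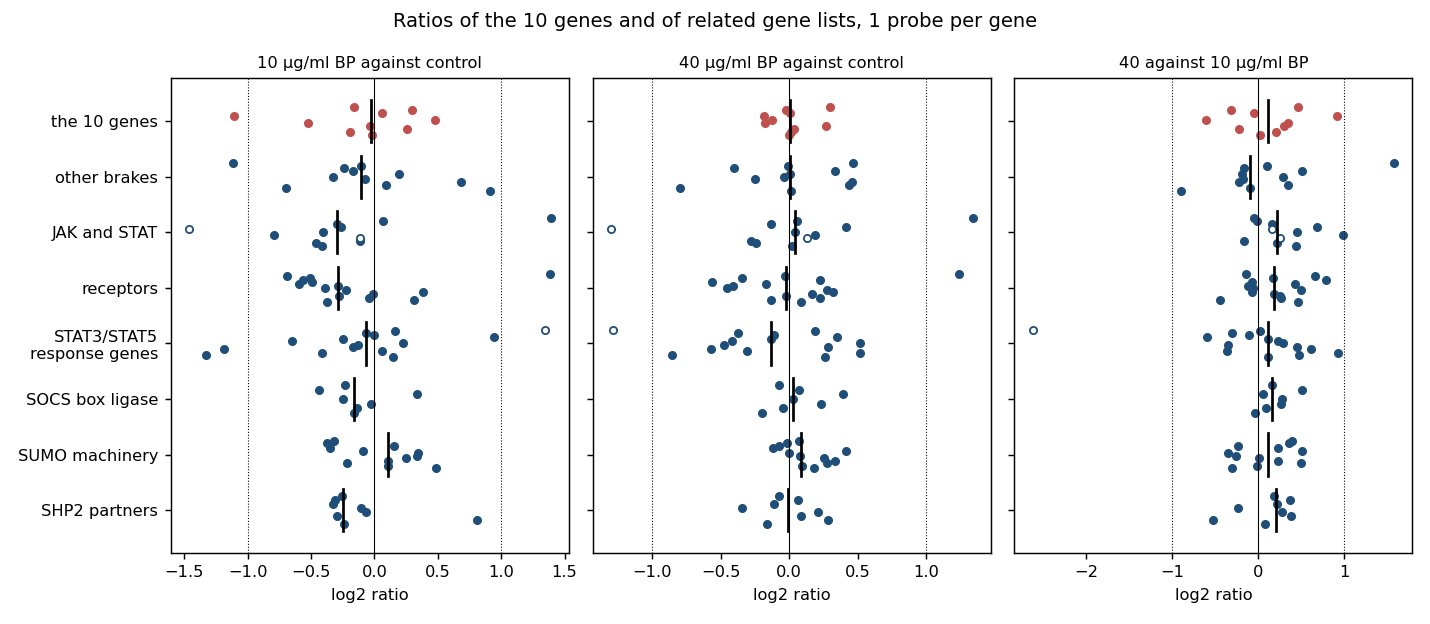
Log2 ratios (x axis) of the 10 genes (red) and of 7 related gene lists (blue), 1 point per gene and 3 comparisons. Black bars are medians, dotted lines mark 2-fold, and open points were not well above background on all 3 arrays. All points are drawn at the plain ratio and not at a bound. For BP10 against control Socs3 was at -1.10 among the 10 genes and Usp18 at -1.12 among the other brakes.

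Likeness of pattern was measured as the Euclidean distance between mean-centred log2 signals over the 3 arrays, among 76 genes of these lists. Nearest to Socs3 were Stat2, at a distance of 0.28 with log2 ratios of -0.79 for BP10 and 0.19 for BP40 against control, and Cebpd, at 0.29. Nearest to Socs2 were the growth hormone receptor gene Ghr, at 0.13, and Senp7, at 0.18. On the probes used, Ghr and Senp7 had log2 ratios of 0.31 and 0.35 for BP10 against control. The second probe of Ghr did not share this pattern, at -0.01 for BP10 and 0.05 for BP40 against control. That of Senp7 did not either, at -0.69 and -0.55. Nearest to Socs1 were Il6ra at 0.06 and Jak2 at 0.09. With 3 arrays many genes have a like pattern, so these distances are a description.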

How the data were processed

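Scanner tables deposited by the authors (Feature Extraction 10.5.1.1) hold 1 background-corrected intensity per spot, with no scaling between arrays, and their series table repeats it. The methods name GeneSpring GX for analysis and no normalization. From the deposited intensity, log2 values were computed relative to the 75th percentile of the array, leaving out control and outlier spots, and averaged over the spots of a probe. Where a probe was above background on 1 array only, calls and medians in the text used its bound. The comparison with brightness classes, the ratios of single probes under other scalings and the figures used the plain ratio. Probe positions are those in the files (mm9). The alternatives were other filters, thresholds, scalings and background corrections. In lists a gene was represented by its brightest probe among those detected on most arrays. All 10 genes are named with every probe. Of the lists, those called are named, and Socs4, Pias2, Pias4, Il6st, Lifr, Jak2 and Stat3. Also named are Lepr, Irf1, Bcl2l1, Igf1 and Cul2, which had another probe past 2-fold against control. Stat2, Ghr, Senp7 and Il6ra are named for likeness of pattern. Members and lists were chosen with earlier results of these data known. The calling step was run on simulated data, in which probes above background on all arrays changed by more than the threshold with little noise. That run checks the code and cannot show whether the calls made here are right. Python 3.11.15 and R 4.3.3 with limma 3.58.1 were used.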

Additional observations from a re-analysis of the deposited data

How the results depend on the processing

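No paired analysis was possible because there was 1 array for each condition. For the counts of probes called and the median ratios, 50 of 66 alternative values stayed within 1.5 times or within the SD between probes. The 66 include those from the series table, which repeats the deposited intensity and so could not move them. With a 3-fold threshold 0 probes were called for BP10 against control, where 3.50% of all probes were. With normexp 1 was called, and with 1 probe per gene 1 was, where 15.2% of all genes were. With median scaling 12.3% of all probes were called. The 2 member probes called were both higher, and Socs3 was not among them. For BP40 against control, 1 was called with quantile normalization, median scaling or the brightness trend subtracted, and 3 at 1.5-fold or with spike-in scaling. Of all probes, 11.72% were called there with quantile normalization, 12.04% with median scaling and 10.46% with the brightness trend subtracted. At 1.5-fold the share of all probes was 34.27%, and with spike-in scaling it was 47.21%. For BP40 against BP10, 1 was called with the percentile over probes above background on all arrays, 4 at 1.5-fold and 9 with spike-in scaling. Here the shares of all probes called were 5.86%, 19.5% and 31.6% in that order. The median ratio was 0.46 for BP10 and 0.35 for BP40 against control with median scaling, -0.80 for BP40 against control and -1.05 for BP40 against BP10 with spike-in scaling, and 0.11 for BP40 against BP10 with 1 probe per gene. Apart from the construction of these settings, the cause was not tested. Of 378 ratios of single probes 94 moved by more than the SD between probes, 36 of them with median scaling and 36 with spike-in scaling. The 378 include 54 from the series table, which could not move. The median over all probes for BP40 against control was -0.95 with spike-in scaling. Of all probes called for BP10 and BP40 against control 23.6% and 21.5% were higher, and 58.9% and 55.9% with quantile normalization. With normexp 4.35% and 3.17% of all probes were called. Without replicates, dim probes such as the second of Pias3 are the least certain.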
